A study of Rattus norvegicus with 6 samples.

Results

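The ERBB receptors and their ligands were examined in rat mammary tumors as 10 genes chosen by symbol: the receptors Egfr, Erbb2, Erbb3 and Erbb4 and the ligands Areg, Ereg, Hbegf, Tgfa, Btc and Nrg1. All 10 were found, each on 1 row of the 32545 rows of the expression table. The tumors came from female Sprague-Dawley rats injected with 50 mg/kg N-methyl-N-nitrosourea (MNU), an alkylating carcinogen, into the peritoneum at an age of 21 days, and this was common to every animal. From 1 week later, the vehicle group was gavaged with 100 µL corn oil and the DATS group with 50 mg/kg diallyl trisulfide (DATS), an organic sulfide from garlic, dissolved in the same oil. Gavage was given 5 times a week over 10 weeks. RNA sequencing covered 3 vehicle and 3 DATS tumors. Neither tumor stage nor the rat of origin is given in the labels, so the p-values measure the spread between these tumors only, and the comparison was made to find transcripts that differ under DATS.

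ERBB receptors are tyrosine kinases of the cell surface that pair with each other when a ligand binds. EGFR binds amphiregulin, TGF-alpha, epiregulin, betacellulin and HB-EGF, and ERBB3 and ERBB4 bind neuregulins. ERBB2 has no known ligand of its own and ERBB3 has little kinase activity, so that each signals mainly within a pair. The ligands are made as membrane-bound precursors and released by ADAM proteases. In the mouse mammary gland, amphiregulin is the ligand through which estrogen drives duct growth, and human ERBB2 is the gene amplified in HER2-positive breast cancer.

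In the RefSeq gene order of rat assembly GRCr8, Btc, Areg, Ereg and Epgn, the last of which encodes epigen, lie next to each other on chromosome 14. The 250 bases upstream of the RefSeq start are shown for Areg, the most abundant member, and for its neighbour Btc, the member that varied most between tumors. They are printed 5′ to 3′ on the strand of the gene, from RefSeq, build GRCr8, with the Areg window at chr14:17265642-17265891 on the minus strand and the Btc window at chr14:16992418-16992667 on the plus strand. Capitals mark matches, on either strand, to the cyclic AMP response element TGACGTCA, the AP-1 site TGANTCA, the GC box GGGCGG and the TATA box TATAAA.
Areg: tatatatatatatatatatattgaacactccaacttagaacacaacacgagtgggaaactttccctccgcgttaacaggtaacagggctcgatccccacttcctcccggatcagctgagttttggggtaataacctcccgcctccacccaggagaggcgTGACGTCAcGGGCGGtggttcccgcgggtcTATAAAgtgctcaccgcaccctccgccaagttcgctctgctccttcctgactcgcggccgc
Btc: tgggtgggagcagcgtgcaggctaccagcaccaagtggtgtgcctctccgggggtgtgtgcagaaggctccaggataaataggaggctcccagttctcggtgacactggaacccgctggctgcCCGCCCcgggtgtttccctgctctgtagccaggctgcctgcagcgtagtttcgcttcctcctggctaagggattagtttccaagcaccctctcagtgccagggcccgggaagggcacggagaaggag
The Areg window held 1 TGACGTCA, which occurred in 1.6% of the 33469 promoter windows of that length, as well as 1 GC box (30.5% of windows) and 1 TATA box (12.9%). The Btc window held 1 GC box, read on the opposite strand, and no match to the other letters. Of the 7 members with a RefSeq promoter entry, 6 held a GC box, Areg alone held the cyclic AMP element and the TATA box, and none matched TGANTCA, which 6.3% of all windows did. These matches describe letters in the windows and not binding.

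Levels were compared in FPKM, fragments per kilobase of gene scaled for depth, in which genes of different length can be set side by side. Areg was the highest member in each of the 6 tumors, and its lowest tumor, at 146 FPKM, lay above the highest tumor of the next gene, Erbb3, at 59.2 FPKM. Below Areg, the means over the 6 tumors ran from Erbb3 (39.8 FPKM) through Btc (14.7), Tgfa (7.17), Nrg1 (4.35), Erbb2 (3.32), Egfr (3.05), Hbegf (2.83) and Ereg (1.51) to Erbb4 (0.456). Every pair of neighbours in this order other than Areg and Erbb3 had overlapping ranges. Within tumors, Tgfa was above Nrg1 in 6 of 6, Erbb3 above Btc and Hbegf above Ereg in 5 of 6 each, whereas Nrg1 and Erbb2, Erbb2 and Egfr, and Egfr and Hbegf each had the upper gene higher in only 3 of 6. Across all genes of the table, Areg ranked between 115 and 554 by FPKM, depending on the tumor.

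**Figure D1:**
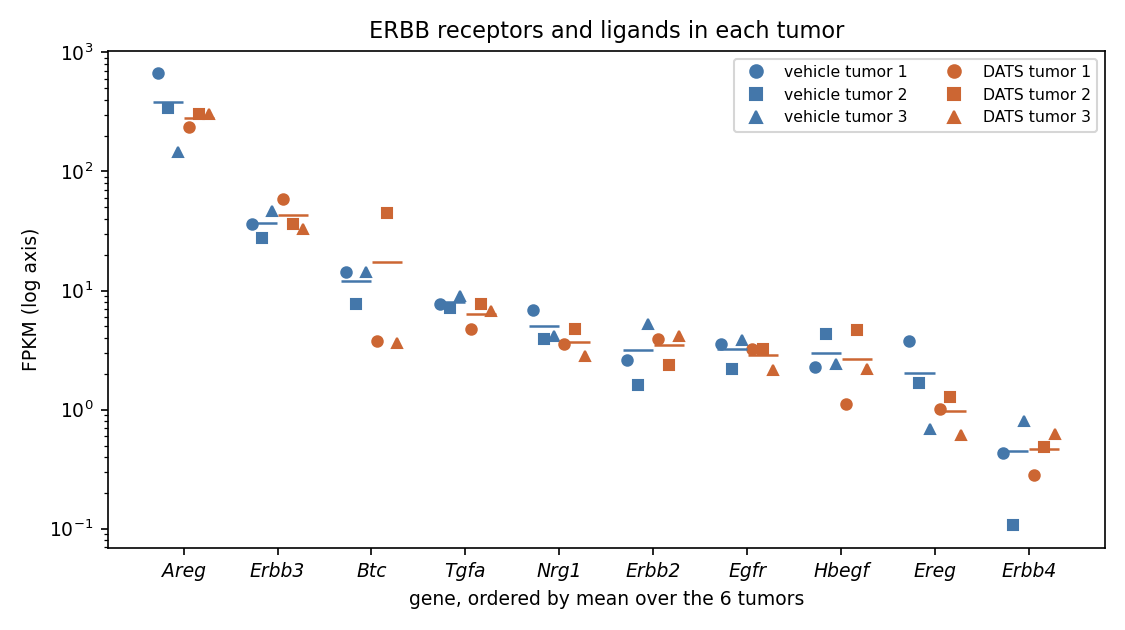
FPKM of the 10 ERBB genes (log axis) in each of the 6 tumors, with genes ordered by their mean, points for tumors and short lines for the mean of each group of 3. Areg lies between 146 and 667 FPKM, above every other member, and vehicle and DATS tumors overlap for all 10 genes.

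No member was called between DATS and vehicle tumors. Genes averaging at least 1 FPKM were tested with limma on log2(FPKM + 1), with an adjusted p (Benjamini-Hochberg) below 0.05 as the call, and 9 of the 10 members were tested. Of these, 0 were called (background 0% of 13631 genes tested), and 0 had an unadjusted p under 0.05 (background 5.85%, 797 genes). limma-voom on read counts recovered from the FPKM values also called 0 members and 0 genes, and its unadjusted p was under 0.05 for 714 genes. The groups overlapped for all 10 members, where 12.2% of the genes tested had groups that did not. The log2 difference, DATS minus vehicle, was below 0 for 7 members and above 0 for 2, with a median of -0.21, where 50.8% of all genes tested were below 0 and 49.2% above, and their median was -0.005. The 7 were the 6 ligands and Egfr, but none of these differences stood clear of the spread between tumors, and 6 of the 9 changed sign when 1 tumor was left out.

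**Figure D2:**
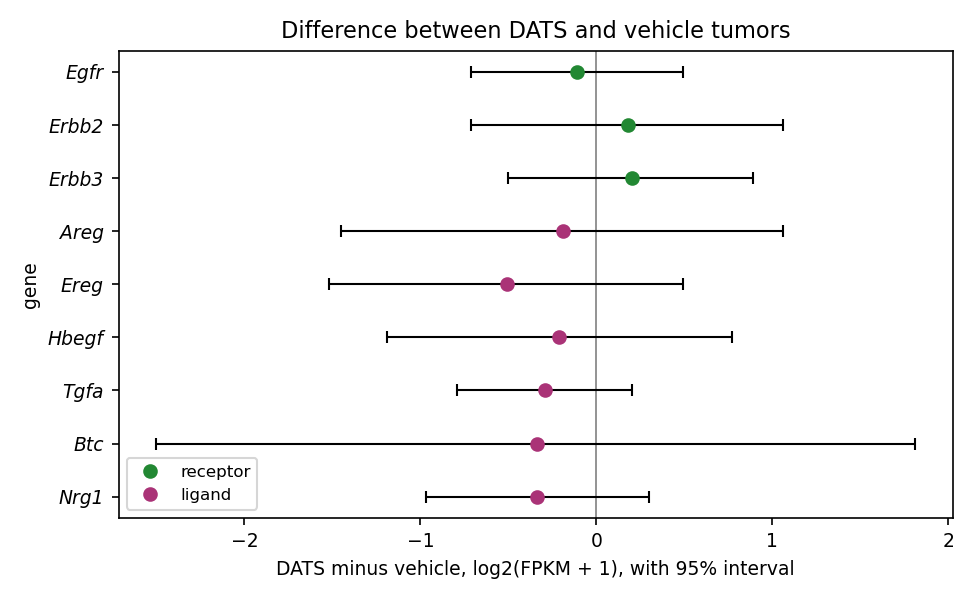
Difference between DATS and vehicle tumors on the log2(FPKM + 1) scale (x axis) for the 3 receptors and 6 ligands tested by limma, with the 95% confidence interval of each. All 9 intervals include 0, and that of Btc, from -2.50 to 1.81, is the widest.

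Among the receptors, Erbb3 was the most abundant transcript in every tumor. It was at 36.1, 27.4 and 46.9 FPKM in vehicle tumors 1, 2 and 3 and at 59.2, 36.3 and 32.8 FPKM in DATS tumors 1, 2 and 3. DATS tumor 1 was the highest and vehicle tumor 2 the lowest, and the groups overlapped. Erbb3 made up 82.5% to 88.9% of the summed FPKM of the 4 receptors and had 7.85 to 17.0 times the FPKM of Erbb2 in the same tumor. The group means (± SD, n = 3 each) were 36.8 ± 9.77 FPKM for vehicle and 42.8 ± 14.4 FPKM for DATS, a log2 difference of 0.20 ± 0.29 (SE; limma adjusted p = 0.920). The difference was -0.06 without DATS tumor 1. Its lowest tumor, vehicle tumor 2, also had the highest markers of T and NK cells, macrophages and fibroblasts, 1.21, 0.68 and 0.35 above the average tumor on the log2 scale, and the lowest myoepithelial and luminal epithelial markers, at -0.67 and -0.57. Over the 6 tumors, r with Erbb3 was -0.87 for T and NK cell markers, 0.78 for myoepithelial, -0.62 for fibroblast, -0.58 for macrophage and 0.13 for luminal markers. The luminal markers were highest, at 0.54, in DATS tumor 3, the next to lowest tumor in Erbb3. The 9 matched rows of T and NK cell markers summed to 109 to 638 FPKM in vehicle and 106 to 318 FPKM in DATS tumors. The part of these cell types in the Erbb3 level was not tested.

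Erbb2, the receptor that is the preferred partner of the others, was low in all tumors. It was at 2.61, 1.61 and 5.26 FPKM in vehicle tumors 1, 2 and 3 and at 3.91, 2.36 and 4.18 FPKM in DATS tumors 1, 2 and 3, from 113 to 361 reads. Vehicle tumors 2 and 3 were the lowest and the highest of all 6, so that the vehicle group spanned the DATS group. The log2 difference was 0.18 ± 0.37 (SE; limma adjusted p = 0.948), and -0.11 without vehicle tumor 2. The genes that flank ERBB2 in the human amplicon, taken as a list of 6, were tested for comparison. Of these, 0 were called, 4 were higher and 2 lower, with a median log2 difference of 0.31 (0.15 to 0.57 with 1 tumor left out). With values rescaled to equal totals the median was 0.14. Stard3, a cholesterol transporter of endosomes, was at 43.6, 43.9 and 61.3 FPKM in vehicle and at 61.0, 58.3 and 62.9 FPKM in DATS tumors (log2 difference 0.30 ± 0.17, SE; limma adjusted p = 0.831). Mien1, which lies beside Erbb2 in the rat order, was at 18.4, 11.8 and 14.9 FPKM in vehicle and at 14.2, 35.0 and 34.9 FPKM in DATS tumors, with DATS tumor 1 among the vehicle tumors (log2 difference 0.77 ± 0.37, SE; adjusted p = 0.819). Both neighbours were above Erbb2 in every tumor.

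Egfr, the receptor of Areg and the other EGF-type ligands, was at 3.6, 2.20 and 3.87 FPKM in vehicle tumors 1, 2 and 3 and at 3.22, 3.26 and 2.16 FPKM in DATS tumors 1, 2 and 3. Its spread was near that of the median gene, with 1.79 times as much in the highest as in the lowest tumor, where the median gene tested had 1.86 times. Its log2 difference was -0.11 ± 0.25 (SE; limma adjusted p = 0.956), which became 0.03 without DATS tumor 3 and 0.01 without vehicle tumor 3. Egfr exceeded Erbb2 in vehicle tumors 1 and 2 and DATS tumor 2 and was below it in the other tumors. Erbb4, a receptor linked in mice to milk-producing differentiation, was at 0.433, 0.107 and 0.801 FPKM in vehicle and at 0.283, 0.488 and 0.625 FPKM in DATS tumors, from 6 to 44 reads. It lay under the filter in the fit of 13631 genes, and without the filter its log2 difference was 0.04 (limma adjusted p = 0.978).

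**Figure D3:**
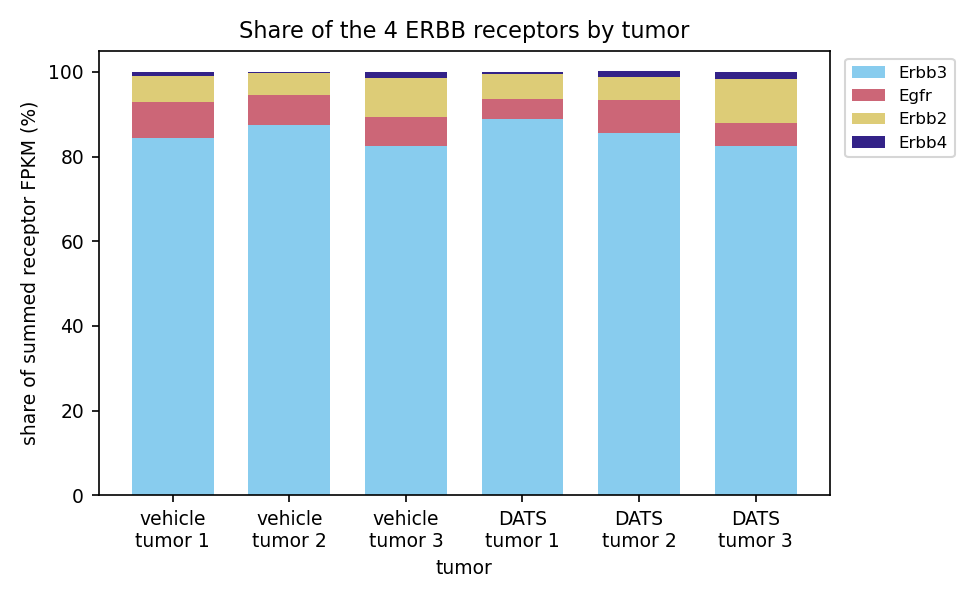
Share of the summed FPKM of the 4 ERBB receptors (y axis, percent) held by Erbb3, Egfr, Erbb2 and Erbb4 in each tumor. Erbb3 holds 82.5% to 88.9% in the 6 tumors, Erbb2 5.2% to 10.5%, Egfr 4.8% to 8.4% and Erbb4 0.3% to 1.6%.

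Amphiregulin dominated the ligand transcripts. Areg was at 667, 338 and 146 FPKM in vehicle tumors 1, 2 and 3 and at 237, 303 and 306 FPKM in DATS tumors 1, 2 and 3. The vehicle tumors held both the highest and the lowest value, and the DATS tumors lay close together between them. Areg supplied 82.6% to 95.0% of the summed FPKM of the 6 ligands. The means (± SD, n = 3 each) were 384 ± 263 FPKM for vehicle and 282 ± 38.9 FPKM for DATS, a log2 difference of -0.19 ± 0.52 (SE; limma adjusted p = 0.965) that became 0.33 without vehicle tumor 1 and -0.76 without vehicle tumor 3. The 95% interval, -1.45 to 1.06, includes changes of more than 1 log2 unit in either direction. Vehicle tumor 1, the highest in Areg, was also the tumor with skeletal muscle transcripts, whose 5 matched markers summed to 1163 FPKM there and to between 17.7 and 42.3 in the other tumors, Ckm being at 0 in DATS tumor 1.

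Ereg, which encodes epiregulin and lies beside Areg, was far lower than Areg and had its highest value in the same tumor. It was at 3.76, 1.68 and 0.691 FPKM in vehicle tumors 1, 2 and 3 and at 1.02, 1.27 and 0.617 FPKM in DATS tumors 1, 2 and 3. Within the vehicle group the order of the tumors was that of Areg, but within the DATS group it was not: DATS tumor 3 had the highest Areg of that group and the lowest Ereg of all 6 tumors. The groups overlapped. Areg had 177, 201 and 211 times the FPKM of Ereg in vehicle tumors 1, 2 and 3 and 232, 239 and 497 times in DATS tumors 1, 2 and 3. The last of these ratios stands apart and rests on 18 reads of Ereg. The log2 difference of Ereg was -0.51 ± 0.42 (SE; limma adjusted p = 0.861) and ran from -0.87 without vehicle tumor 3 to -0.13 without vehicle tumor 1, the tumor with muscle transcripts. Over the 6 tumors, r with the muscle markers was 0.91 for Ereg, 0.82 for Nrg1 and 0.81 for Areg. Those markers were 4.17 above the average tumor on the log2 scale in vehicle tumor 1 and at -0.32 or less in the others. Each r therefore rests mainly on that 1 tumor, and the part of muscle in these values was not tested. Over the 6 tumors, Pearson's r of log2(FPKM + 1) between Areg and Ereg was 0.86 and fell to 0.56 without vehicle tumor 1. Between Ereg and Nrg1 it was 0.87 and fell to 0.52 without that tumor. Such values describe 6 points that share a library and a scaling factor for both genes.

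Btc, the neighbour on the other side of Areg, did not show the Areg order. Betacellulin binds both EGFR and ERBB4. Btc was at 14.2, 7.69 and 14.4 FPKM in vehicle tumors 1, 2 and 3 and at 3.74, 44.5 and 3.61 FPKM in DATS tumors 1, 2 and 3. DATS tumor 2 was the highest of the 6 and the other DATS tumors were the lowest. The highest tumor had 12.3 times the lowest, and 98.1% of genes tested had a smaller SD within groups. Because of this spread, the mean FPKM was higher in DATS (17.3 ± 23.6) than in vehicle tumors (12.1 ± 3.80; SD, n = 3 each), while the log2 difference was -0.34 ± 0.90 (SE; limma adjusted p = 0.962). It was -1.44 when DATS tumor 2 was left out (limma unadjusted p = 0.00455, adjusted p = 0.999), 0.20 without DATS tumor 1 and 0.21 without the third. In DATS tumor 2, Btc supplied 12.1% of the ligand FPKM. Adipocyte markers ran the other way on average, with the 4 tested at 0.94 and 0.76 above the average tumor in DATS tumors 1 and 3 and at -0.98 in DATS tumor 2. Adipoq, Plin1, Fabp4 and Pparg were lowest in DATS tumor 2, at 0, 0, 8.11 and 1.07 FPKM. Lipe, at 4.18 FPKM there, was above vehicle tumors 1 and 2, and Cidec, at 0.470, above vehicle tumors 2 and 3. Pparg in DATS tumor 1, at 1.31 FPKM, was below vehicle tumors 2 and 3. The summed FPKM of the 6 adipocyte markers was 24.1 to 27.8 in vehicle and 13.8 to 84.2 in DATS tumors, and their part in the Btc value was not tested.

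**Figure D4:**
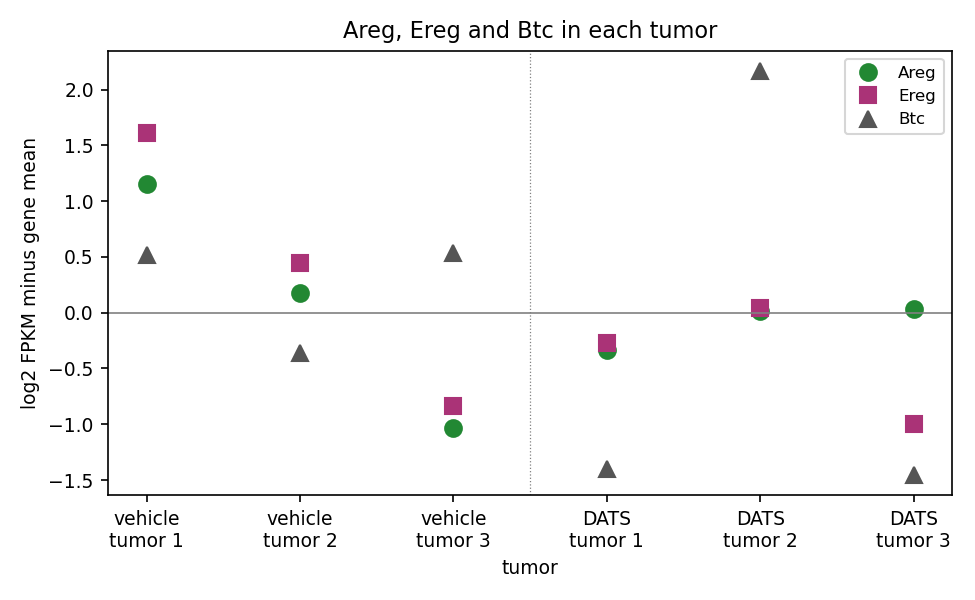
Log2 FPKM of the neighbouring ligand genes Areg, Ereg and Btc in each tumor, relative to the mean of the gene over the 6 tumors (y axis). Areg and Ereg are both highest in vehicle tumor 1, at 667 and 3.76 FPKM, and Btc in DATS tumor 2, at 44.5 FPKM.

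Tgfa and Nrg1 varied less than Areg, Ereg and Btc. Tgfa, which encodes the EGFR ligand TGF-alpha, was at 7.70, 7.09 and 9.05 FPKM in vehicle tumors 1, 2 and 3 and at 4.77, 7.65 and 6.74 FPKM in DATS tumors 1, 2 and 3. DATS tumor 1 was the lowest, and DATS tumor 2 lay among the vehicle tumors. The log2 difference was -0.29 ± 0.21 (SE; limma adjusted p = 0.851), with -0.42 when DATS tumor 2 was omitted and -0.12 without DATS tumor 1. The SD of Tgfa within groups, 0.24 on the log2 scale, was the smallest among the tested members, that of Egfr being 0.29. Nrg1, the neuregulin that binds ERBB3 and ERBB4, was at 6.88, 3.93 and 4.18 FPKM in vehicle and at 3.59, 4.74 and 2.80 FPKM in DATS tumors. Vehicle tumor 1 was again the highest, and the groups overlapped through DATS tumor 2. The log2 difference of Nrg1 was -0.34 ± 0.27 (SE; limma adjusted p = 0.860), and -0.12 without vehicle tumor 1, which held the muscle transcripts.

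Hbegf, which encodes a heparin-binding EGFR and ERBB4 ligand, was at 2.29, 4.29 and 2.43 FPKM in vehicle and at 1.12, 4.66 and 2.21 FPKM in DATS tumors, from 36 to 146 reads. DATS tumors held both the highest and the lowest value. The log2 difference was -0.21 ± 0.41 (SE; limma adjusted p = 0.942) and became 0.13 without DATS tumor 1. Hbegf and Erbb3 ran in opposite directions, with r = -0.75 over the 6 tumors (-0.86 to -0.44 with 1 tumor left out). T and NK cell markers had r = 0.80 with Hbegf and -0.87 with Erbb3, and adipocyte markers had r = -0.82 with Hbegf. The part of these cell types in the relation of Hbegf and Erbb3 was not tested.

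Among the tested genes outside the family whose symbol is on 1 row, those most like each member over the 6 tumors were found by Pearson's r of log2(FPKM + 1), as a description. With 6 points and 13183 genes searched, values close to 1 are frequent, and 7 to 43 genes exceeded r = 0.95 with a given member. For the receptors these were Ncstn and Ptpru for Egfr (r = 0.998 and 0.987), 2610015P09Rik and Tmem98 for Erbb2 (0.999 and 0.985) and Prr12 and Pigh for Erbb3 (0.992 and 0.987). For the ligands of the chromosome 14 cluster they were Tuba1b and Pole3 for Areg (0.986 and 0.985), Palb2 and Dusp7 for Ereg (both 0.982) and Clec2dl1 and B3galt2 for Btc (0.979 and 0.978). Adgre5 and Calu were most like Hbegf (0.995 and 0.981), Manba and Aldh1a3 most like Tgfa (0.991 and 0.964) and Spred1 and Ppfibp1 most like Nrg1 (0.983 and 0.971).

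Of 5 further ligand genes of the family, Nrg2 and Nrg4 passed the filter. The means of Nrg2, 6.20 FPKM in vehicle and 5.83 FPKM in DATS tumors, were above those of Nrg1, 5.00 and 3.71 FPKM. Nrg2 was at 10.5, 2.64 and 5.40 FPKM in vehicle and at 3.93, 7.14 and 6.43 FPKM in DATS tumors, and Nrg4 at 0.902, 0.646 and 3.95 FPKM against 0.530, 1.80 and 3.12 FPKM. Both varied more within the groups than between them, with log2 differences of 0.05 ± 0.44 and 0.06 ± 0.55 (SE; limma adjusted p = 0.991 and 0.990), which turned to -0.10 and -0.05 with values rescaled to equal totals. Egf itself was at 0.303 FPKM or less, Epgn, the fourth gene of the cluster, at 0.280 or less, and Nrg3 was listed at 0 in every tumor.

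The main proteases that release the ligands had lower values in DATS tumors, without being called. Of 8 genes of ligand processing, 7 were tested and 0 called, 5 being lower and 2 higher, with a median log2 difference of -0.16. That median ran from -0.35 without DATS tumor 3 to 0.09 without DATS tumor 1 and was -0.32 without vehicle tumor 1 and -0.05 without vehicle tumor 2. Adam17, the main protease that sheds amphiregulin and TGF-alpha, was at 27.9, 29.6 and 28.6 FPKM in vehicle tumors 1, 2 and 3 and at 24.0, 24.9 and 20.7 FPKM in DATS tumors 1, 2 and 3. Adam10, which sheds betacellulin, was at 21.2, 22.2 and 21.3 FPKM in vehicle and at 17.1, 16.4 and 15.9 FPKM in DATS tumors. For both genes the 3 DATS tumors lay below the 3 vehicle tumors, as for 5.5% of all genes tested. Both were named for having the smallest p of the list, so that share does not measure how unusual they are. The log2 difference was -0.30 ± 0.13 for Adam17 (SE; limma unadjusted p = 0.0604, adjusted p = 0.819) and -0.37 ± 0.12 for Adam10 (unadjusted p = 0.0201, adjusted p = 0.819). With 1 tumor left out they ranged from -0.35 to -0.22 and from -0.40 to -0.35, and under the other settings from -0.47 to -0.30 and from -0.54 to -0.37. Rhbdf1 and Rhbdf2, the inactive rhomboids that bring ADAM17 to the surface, had log2 differences of 0.20 ± 0.22 and 0.13 ± 0.16 (SE), with overlapping groups. Adam9, Adam15 and Adam19 had log2 differences of -0.33 ± 0.16, -0.16 ± 0.30 and -0.07 ± 0.64 (SE), also with overlapping groups. Adam12, below the filter and not tested, was at 1.14, 0.701 and 1.25 FPKM in vehicle and at 0.334, 0.668 and 0.504 FPKM in DATS tumors. It rested on 14 to 60 reads.

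Adaptors and effectors that dock on the receptors were tested for 17 of 18 rows (a further row of Grb2 lay under the filter), of which 0 were called, 7 were higher and 10 lower (median log2 difference -0.07, and -0.07 to 0.01 with 1 tumor left out). Pik3r1, the regulatory subunit through which ERBB3 engages PI3-kinase, was at 17.7, 13.4 and 14.5 FPKM in vehicle and at 61.1, 21.7 and 18.3 FPKM in DATS tumors. DATS tumor 1 stood far above the rest, and the other DATS tumors were just above the vehicle tumors. Its log2 difference was 0.90 ± 0.44 (SE; limma adjusted p = 0.819), and 0.38 without DATS tumor 1. Sos1, a RAS exchange factor, was at 5.98, 7.46 and 6.74 FPKM against 5.55, 5.58 and 4.78 FPKM, a log2 difference of -0.29 ± 0.16 (SE; adjusted p = 0.828).

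Genes that restrain or degrade the receptors were tested for 16 of 16, of which 0 were called, 5 were higher and 11 lower. The median log2 difference was -0.07, with -0.19 without DATS tumor 1, -0.11 without vehicle tumor 1, -0.02 without vehicle tumor 3 and 0.02 without DATS tumor 3. Cblc, a ubiquitin ligase of the CBL family found in epithelia, was at 11.8, 14.5 and 22.0 FPKM in vehicle and at 28.3, 28.9 and 50.9 FPKM in DATS tumors. All 3 DATS tumors lay above the vehicle tumors, as for 6.72% of genes tested. Cblc was named for having the smallest p of the list, so that share does not measure how unusual it is. Its log2 difference was 1.11 ± 0.31 (SE; limma unadjusted p = 0.0107, adjusted p = 0.819), with 0.84 to 1.34 when 1 tumor was left out. Lrig2 was at 3.11, 3.98 and 3.33 FPKM against 2.95, 2.96 and 1.75 FPKM (log2 difference -0.35 ± 0.23, SE; adjusted p = 0.851), and Errfi1, an inhibitor of the EGFR and ERBB2 kinases, had a log2 difference of -0.09 ± 0.20 (SE).

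Feedback genes induced by ERK, the kinase downstream of the receptors, were tested for 11 of 11, of which 0 were called, 5 were higher and 6 lower. The median log2 difference was -0.18 and had no stable sign: leaving out vehicle tumor 1 gave 0.09, leaving out DATS tumor 1, 2 or 3 gave 0.02, -0.36 or 0.06. Spred2 and Spry4, inhibitors of the pathway, had log2 differences of -0.40 ± 0.29 and -0.32 ± 0.27 (SE; limma adjusted p = 0.854 and 0.861). With 1 tumor left out, Spred2 ran from -0.67 without DATS tumor 1 to -0.18 without DATS tumor 3, and Spry4 from -0.53 without DATS tumor 2 to -0.20 without vehicle tumor 3. Dusp6, the ERK phosphatase, was at 148, 104 and 97.2 FPKM in vehicle and at 76.9, 184 and 71.3 FPKM in DATS tumors. DATS tumors held both its extremes, with DATS tumor 2, which was also the highest in Btc and Hbegf, on top. Vehicle tumor 1, next in Dusp6, was the highest in Areg. Dusp4, Dusp5, Spry1 and Etv5 were also highest in DATS tumor 2. Spry2, Etv4, Spred1 and Spred2 were highest in vehicle tumor 1, Etv1 in vehicle tumor 2 and Spry4 in vehicle tumor 3. A relation of these genes to the ligands was not tested.

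**Figure D5:**
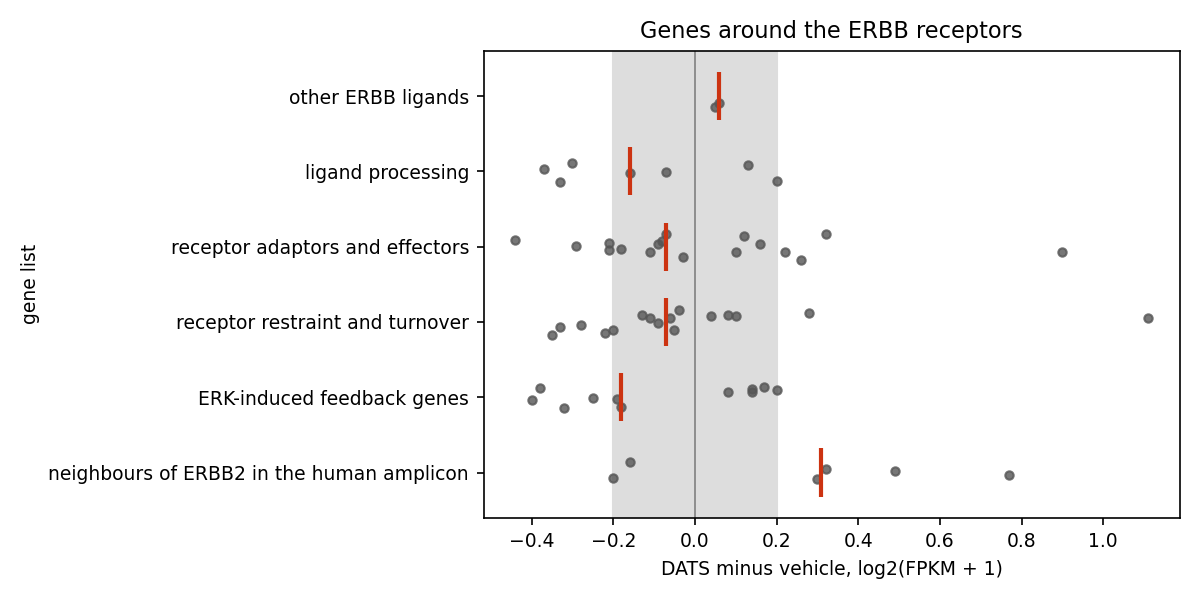
Log2 difference, DATS minus vehicle (x axis, log2(FPKM + 1) scale), of each tested gene of 6 lists around the ERBB receptors (points), with the median of each list (vertical marks) and the range between the quartiles of all genes tested, -0.20 to 0.20, shaded. The medians run from -0.18 for ERK-induced feedback genes to 0.31 for the neighbours of ERBB2, and Cblc, at 1.11, is the rightmost point.

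Read depth and cell type markers differed between the tumors, and their part in the values of the members was not tested. Between 13531587 and 16868678 reads per tumor were recovered, and the members rested on 6 reads (Erbb4, vehicle tumor 2) to 13398 reads (Areg, vehicle tumor 1). The median half-width of the 95% interval over all genes tested was 0.57 on the log2 scale, and 8 of the 9 tested members had an SD within groups above that of the median gene. Luminal epithelial markers were detected for 12 of 12. Detection could not check the mammary label, since 0 of the 63 matched marker rows of all cell types were at 0 in all 6 tumors. The luminal markers summed to 2157 to 2928 FPKM in vehicle and 2852 to 4660 FPKM in DATS tumors, with 11 of 12 higher in DATS, where 49.2% of all genes tested were higher. Myoepithelial markers summed to 1294 to 2529 FPKM in vehicle and 1559 to 3532 FPKM in DATS tumors, with 10 of 10 higher. The FPKM total of all genes was also higher in each DATS tumor than in each vehicle tumor. None of these 22 markers was called, and their part in the differences of the members, Erbb3 and Cblc included, was not tested. In such whole tumors, fewer cells of a type and less RNA per cell cannot be told apart.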

How the data were processed

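RNA of 6 tumors was measured, 3 of vehicle-treated and 3 of DATS-treated rats, grouped by the treatment label. Values were deposited by the authors as FPKM with Ensembl identifiers and symbols, per the file headers; for aligner, counter, build, annotation and strand handling the sources used here give nothing. Reads shared with near-identical or overlapping genes could therefore not be separated. FPKM values of a gene were whole multiples of the value of 1 read, which gave whole reads (tolerance 1e-06) for 100.0% of the 20891 genes above 0; the scaling between tumors was that of median-of-ratios size factors, so FPKM totals differed (566304 to 710096).

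Genes with a mean of at least 1 FPKM (13631) were analysed on log2(FPKM + 1) with limma 3.58.1 in R 4.3.3 (two-sided, with an intensity trend and no term but group, Benjamini-Hochberg over all genes); this scale understates changes of low genes. Scripts were tested on simulated data. Alternatives were a pseudocount of 0.1, no filter, equal totals, quantile normalization, limma-voom on recovered reads with TMM factors, a replicate block and leaving out each tumor. Lists are described by counts and medians without a set test. Named were all members, the 2 genes of each list with the smallest p and the 2 genes most like each member. Other genes (Rhbdf1, Rhbdf2, Adam9, Adam12, Adam15, Adam19, Errfi1, Dusp6 and further feedback genes, Egf, Epgn, Nrg3) and single cell type markers were chosen after their values were seen. The members and lists were chosen with earlier results of these data known. Promoter sequences and gene order are from RefSeq (GRCr8). Tables used pandas 2.3.3 and numpy 2.4.6 in Python 3.11.15, and plots matplotlib 3.10.9.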

Additional observations from a re-analysis of the deposited data

How the results depend on the processing

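No ERBB member and no gene was called under any of the 12 alternatives. The lowest adjusted p of a member was 0.657 (Tgfa, with equal totals), and an unadjusted p under 0.05 was reached by 1 member in 1 alternative, Btc without DATS tumor 2. The signs of Ereg, Tgfa and Nrg1 held throughout. Others turned when 1 tumor was left out: Areg to 0.33 without vehicle tumor 1; Erbb2 to -0.11 and Hbegf to 0.01 without vehicle tumor 2; Egfr to 0.01 without vehicle tumor 3; Erbb3 to -0.06, Hbegf to 0.13 and Btc to 0.20 without DATS tumor 1; Egfr to 0.03 and Btc to 0.21 without DATS tumor 3. Over the 6 such settings the extremes were -0.30 to 0.03 for Egfr, -0.11 to 0.52 for Erbb2, -0.06 to 0.38 for Erbb3, -0.76 to 0.33 for Areg, -0.58 to 0.13 for Hbegf and -1.44 to 0.21 for Btc. Nrg2 ranged from -0.36 to 0.47 and Nrg4 from -0.27 to 0.56; with equal totals they were -0.10 and -0.05. Equal totals moved the median of all genes by -0.16. At an unadjusted p under 0.05 (limma), 128 genes were then higher and 905 lower, against 510 and 287 as deposited. Erbb2 and Erbb3 were at 0.04 and 0.02 with equal totals, and the ligand processing median at -0.33. With the values as deposited, that median was -0.16 (-0.35 to 0.09 with 1 tumor left out). FPKM totals were 608193, 656017 and 566304 in vehicle tumors 1, 2 and 3 and 710096, 696676 and 662528 in DATS tumors 1, 2 and 3. Every DATS total lay above every vehicle total, so setting them equal lowers DATS values relative to vehicle values. Why the totals differed was not tested.

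No pairing by replicate number was evident. The correlations of same-numbered deviations from the group means were 0.15, -0.02 and -0.12, and those of different numbers ran from -0.23 to 0.27. Because the deviations in a group of 3 sum to 0, these correlations cannot exclude a pairing. With the replicate block 0 genes were called and 594 had an unadjusted p under 0.05, against 797 without it. Precision is limited by 3 tumors per group and, for Erbb4, Ereg and Hbegf, by few reads.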
